A study of Mus musculus with 45 samples.

Results

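Regulatory T cells (Treg) of visceral adipose tissue (VAT) were compared with Treg of the spleen in female mice, across all genes. The comparison took the 2 VAT Treg and the 2 spleen Treg libraries from female reporter mice without a Cre transgene, 4 of the 45 libraries of the series, which fall into 22 groups. VAT Treg were sorted for red fluorescence from 25-week-old female Foxp3RFP mice on a C57BL/6 background, in which a red fluorescent protein marks cells that express Foxp3. Each VAT library pooled 4 mice. Spleen Treg came from female Foxp3RFP mice, 3 to a library, whose age the labels do not give, so tissue and any difference in age cannot be told apart. No treatment and no further allele is named for either group. All 4 RNA-seq libraries were made with a TruSeq kit. The counts assigned to genes came to 26667263 and 25872221 in the VAT Treg libraries and to 16930458 and 15215458 in the spleen Treg libraries. Levels are CPM, counts scaled to library size with the TMM factors of edgeR, and differences are log2 fold changes of VAT over spleen with their standard error (SE). A gene is called at an adjusted p under 0.05. Each library is a pool, so p-values measure the spread between pools of mice.

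Treg are CD4 T cells that restrain immune responses and are defined by the transcription factor Foxp3. Those resident in visceral fat have been described in male mice as carrying the IL-33 receptor ST2, the transcription factors PPARγ and GATA3 and the receptor KLRG1. Activation of T cells, and handling of tissue, switch on immediate early genes, which need no new protein synthesis. Many encode AP-1 transcription factors, dimers of Fos and Jun proteins, or enzymes and inhibitors that shut the signal off again. Nfkbiz encodes IκBζ, a nuclear member of the IκB family that acts with NF-κB on a subset of its targets, and Junb encodes an AP-1 subunit.

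Foxp3 stood at 474.5 and 389 CPM in VAT Treg and at 181 and 234 CPM in spleen Treg, and at 0 in both libraries of reporter-negative CD4 T cells from female VAT. Both Treg groups thus held Foxp3 transcripts at levels that did not overlap with each other. The difference of 1.06 (SE 0.69, edgeR adjusted p = 0.514) did not pass the test. Xist was present in all 4 libraries, at 71.6 to 159 CPM, and the Y-linked gene Ddx3y was at 0 in all 4. The second VAT Treg library stood apart in genes of other cells of fat, and the spleen libraries in genes of B cells. The summed level of the 10 fibroblast markers was 201 and 2252 CPM in VAT Treg and 12.9 and 15.4 CPM in spleen Treg, and that of the 10 B cell markers 3004 and 1724 CPM in VAT Treg and 5385 and 4978 CPM in spleen Treg. Results that move with these sums are given with and without the second VAT library.

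Of 17340 genes tested, 296 were called: 247 were higher in VAT Treg (1.42% of genes tested) and 49 were lower (0.283%). The median log2 fold change of all genes tested was 0.14, and 2535 genes had an unadjusted p under 0.05. All 296 called genes were without overlap between tissues, so a lack of overlap adds nothing to a call. Of all genes tested, 25.9% were higher and 15.1% lower in VAT Treg without overlap. No count in either spleen library was found for 110 of the 247 higher genes, and the other 137 had a median log2 fold change of 2.41. The spleen libraries were less deep and had fewer genes with a count, 11651 and 12305 against 14584 and 15328 in VAT. Depth and this number did not go together in every T cell library. Female VAT CD4 libraries had 13071 and 11974 genes from 11651753 and 11673761 counts. Male spleen Treg libraries had 12877 and 13822 genes from 61913009 and 25091876 counts. Why genes had no count in female spleen Treg was not tested. The 49 lower genes had a median of -1.14. The test estimates the spread from all 19 T cell libraries of the series, among them Treg of male Foxp3Cre and Blimp1Foxp3Cre mice. With the 4 compared libraries alone edgeR called 1 gene, Fosl2, of 13309 tested, while 2424 had an unadjusted p under 0.05. With 2 libraries a group the calls also turned on single libraries, from 78 without the first spleen library to 82 without the second VAT library, 249 without the first VAT library and 529 without the second spleen library.

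Many genes of the early response to stimulation were higher in VAT Treg. Across 3 lists, of immediate early genes, of AP-1 and related bZIP factors, and of NF-κB subunits, inhibitors and feedback genes, 21 of 62 members tested were higher in VAT Treg and 0 were lower. That is 33.9% of the members, beside 1.42% of all genes. The lists were chosen with earlier results of these data known, so this share is a description and no test. All 21 were also called higher in VAT Treg of male mice. By list, the counts were 13 of 24 immediate early genes with a median of 1.37, 8 of 20 AP-1 and related factors with a median of 1.97, and 2 of 20 genes of the NF-κB list with a median of 0.02. Without the first spleen library these 3 counts were 6, 4 and 2. DESeq2, which called 969 of all 17340 genes higher and 320 lower, called 14, 9 and 2 members higher. It called 1 immediate early and 1 NF-κB gene lower. Levels in female VAT CD4 T cells were not tested and are given beside some genes as values. For all 21 genes both VAT CD4 libraries lay above both spleen Treg libraries, and for 5 the VAT CD4 mean was at or above the VAT Treg mean. The 21 were called against those same spleen libraries, and the share over all genes was not taken. Nothing in the labels separates the tissue from its digestion and sort, and the part of handling was not tested.

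Nfkbiz (Entrez 80859, chr16:55811375-55838954, GRCm38) had the smallest adjusted p of the NF-κB list. Its level was 323 and 158 CPM in VAT Treg, 8.37 and 7.53 CPM in spleen Treg, and 114 and 125 CPM in VAT CD4 T cells. Both VAT Treg libraries were far above both spleen libraries, which lay close together, and the log2 fold change was 4.92 (SE 0.42, edgeR adjusted p = 1.74e-05). Tnfaip3, which encodes the ubiquitin-editing NF-κB inhibitor A20, stood at 1666 and 647 CPM against 88.7 and 86.6 CPM, with no overlap and a log2 fold change of 3.72 (SE 0.42, adjusted p = 0.00013). Both calls were kept when any one of the 4 libraries was left out, with values of 4.32 for Nfkbiz and 2.88 for Tnfaip3 without the first VAT library. The NF-κB subunits themselves were not called: the log2 fold change was 0.19 for Nfkb1 (SE 0.22), -0.17 for Rela (SE 0.21) and 0.56 for Rel (SE 0.49). Nfkbia, the inhibitor IκBα, had 637.5 and 376 CPM in VAT Treg and 451 and 465 CPM in spleen Treg. Its groups overlapped and its log2 fold change was 0.15 (SE 0.24, adjusted p = 0.869).

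Among the AP-1 genes, Junb (Entrez 16477, chr8:84976909-84978748) had the smallest adjusted p. Its level was 2895 and 2196 CPM in VAT Treg, 459.7 and 645 CPM in spleen Treg and 2683 and 2150 CPM in VAT CD4 T cells. VAT Treg and VAT CD4 T cells overlapped, spleen Treg lay below, and the log2 fold change of VAT Treg over spleen Treg was 2.2 (SE 0.22, adjusted p = 6.77e-05). Fosb, a Fos family subunit, stood at 179 and 279.7 CPM against 10.2 and 0.911 CPM, a log2 fold change of 5.36 (SE 0.69, adjusted p = 0.000464). Fos itself stood at 171 and 835 CPM against 12.2 and 19.8 CPM, a log2 fold change of 4.98 (SE 0.75, adjusted p = 0.00196). For both the VAT libraries lay above the spleen libraries, with a wide gap between the 2 VAT libraries for Fos, whose log2 fold change was 3.42 without the second and 5.71 without the first. That of Fosb was 7.97 without the first spleen library and 4.49 without the second. Fosl2, which encodes Fra-2, was even within each tissue, at 409 and 391 CPM in VAT and 27.6 and 28.3 CPM in spleen, with a log2 fold change of 3.84 (SE 0.58, adjusted p = 0.00196). Jun rose by 3.99 (SE 0.74), Nfil3 by 2.06 (SE 0.32), Cebpb by 1.89 (SE 0.34) and Maff, a small Maf protein, by 2.18 (SE 0.52) on the log2 scale. Jun ranged from 3.08 to 6.89 with 1 library left out, Maff had 2.91 without the first spleen library, and Nfil3 had 1.43 without the first VAT library. Junb, Fosb and Nfil3 kept their call without any one library. Without the first spleen library Fosl2 (adjusted p = 0.0612), Fos (0.0718), Cebpb (0.1) and Maff (0.0622) lost theirs, without the second VAT library Jun (0.089) and Maff (0.0741), and Maff also lost it without the first VAT library (0.211) and without the second spleen library (0.142).

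**Figure D1:**
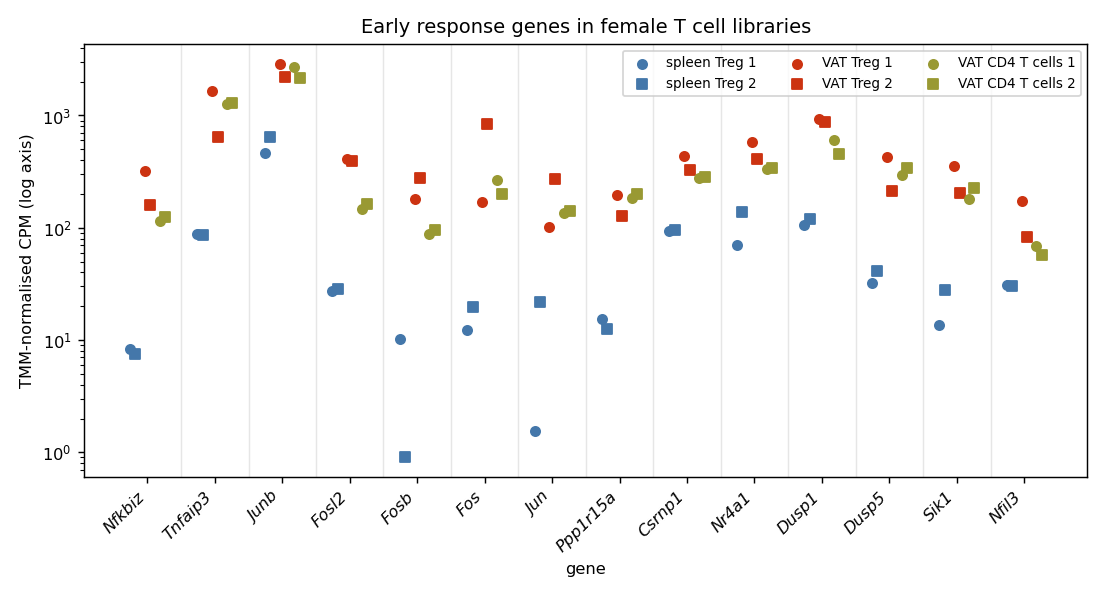
Levels of 14 called genes of the early response and its feedback in single libraries of female mice, in CPM on a log axis, for spleen Treg, VAT Treg and VAT CD4 T cells, each point 1 library. Both VAT Treg points of every gene shown lie above both spleen points, which holds for all genes called higher. Nfkbiz is an example, with 323 and 158 against 8.37 and 7.53 CPM.

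The other immediate early genes that rose encode nuclear receptors, phosphatases and stress regulators. Csrnp1, an AXIN1-induced nuclear protein, had 439 and 326 CPM in VAT and 94.1 and 96.2 CPM in spleen, a log2 fold change of 2.01 (SE 0.22, adjusted p = 9.57e-05). Ppp1r15a, which encodes GADD34, the subunit that directs dephosphorylation of eIF2α, had 198 and 128.5 CPM against 15.6 and 12.5 CPM, a log2 fold change of 3.54 (SE 0.39, adjusted p = 9.57e-05). The transcription factor gene Klf4 had 29.2 and 81.9 CPM in VAT and no count in spleen. It was at least 643.7-fold higher when the spleen group is set to 3 counts (edgeR adjusted p = 0.000191), or 329.5-fold from the first VAT library alone. Male spleen Treg had 3.42 and 7.38 CPM of Klf4, and the log2 difference in males was 4.49 (SE 0.80). These 3 genes did not overlap between tissues and kept their calls without any one library. Nr4a1, an orphan nuclear receptor induced by T cell receptor signals, had 577.5 and 409 CPM against 70.7 and 139 CPM, a log2 fold change of 2.24 (SE 0.43, adjusted p = 0.0127). Its family members Nr4a2 and Nr4a3 rose by 3.01 (SE 0.51) and 3.11 (SE 0.47, and 3.71 without the second spleen library). The call of Nr4a1 was lost without the first VAT library (adjusted p = 0.0594) or the first spleen library (0.18), and that of Nr4a3 without the first spleen library (0.0519). Klf6 rose by 1.39 (SE 0.24), and lost its call without the first spleen library (0.0933). Ier3 and the antiproliferative gene Btg2 were called as well. Ier3 kept its call only without the first VAT library (0.0221), and Btg2 in none of the 4 fits with 1 library left out (adjusted p 0.0902 to 0.179).

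Phosphatases that switch off MAP kinases were part of this set. Of 20 dual-specificity phosphatase genes (Dusp) tested, 5 were higher, beside 1.42% of all genes, and 0 lower. Dusp1 stood at 923 and 873 CPM in VAT Treg, 107 and 121 CPM in spleen Treg and 601 and 449.6 CPM in VAT CD4 T cells. VAT Treg and spleen Treg did not overlap, and the log2 fold change was 2.98 (SE 0.41, adjusted p = 0.000842). Dusp4 stood at 353 and 174 CPM against 25.0 and 37.2 CPM, and at 55.2 and 67.8 CPM in VAT CD4 T cells, a log2 fold change of 3.08 (SE 0.37, adjusted p = 0.000258). Dusp5 rose by 3.13 (SE 0.47), Dusp10 by 1.81 (SE 0.40), and Dusp8, with no count in spleen, was at least 51.6-fold higher. Dusp1 and Dusp4 kept their calls without any one library. Without the first VAT library Dusp4 had 2.48 and Dusp10 1.22. Dusp5 lost its call without the first spleen library (0.0622), Dusp8 without that library (0.105) or the second VAT library (0.0662), and Dusp10 without the first spleen (0.181), the second spleen (0.0894) or the first VAT library (0.224).

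Further genes that kept their call in every such fit, chosen after their values were seen, were Sik1, Coq10b, Pim3 and Errfi1. Sik1, a salt-inducible kinase that restrains CREB coactivators, had 353 and 205 CPM in VAT and 13.6 and 28.1 CPM in spleen, a log2 fold change of 3.75 (SE 0.40, adjusted p = 9.57e-05). Pim3, a serine/threonine kinase, had 141 CPM in both VAT libraries and 32.3 and 44.8 CPM in spleen, a log2 fold change of 1.87 (SE 0.27, adjusted p = 0.00136). Errfi1, an inhibitor of the EGF receptor family, rose by 2.84 (SE 0.39) and Coq10b, a coenzyme Q binding protein, by 3.26 (SE 0.36). None of the 4 overlapped between tissues, and without the second spleen library Sik1 had 4.36 and Errfi1 3.62. Of 16 glucocorticoid-responsive genes, Dusp1, the clock gene Per1 (2.31, SE 0.38) and the kinase gene Sgk1 (2.59, SE 0.51) were higher and 0 were lower. The median of the 16 was 0.98, and 0.25 without the second VAT library. Of all genes 1.42% were higher. Per1 had 1.7 without the first VAT library and Sgk1 3.24 without the second spleen library. Per1 lost its call without the first spleen library (0.0612), and Sgk1 without that library (0.189) or the first VAT library (0.0727).

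The promoters of called early response genes were read for 4 motifs, since these genes moved together and such motifs are the known elements of this response. RefSeq windows on GRCm38.p6 run from 250 bases before to 50 bases after a start site, and 20 of the 21 genes had one. The motifs were the AP-1 site TGANTCA, the full cyclic AMP response element (CRE) TGACGTCA, the NF-κB site and the CArG box of serum response factor, each searched on both strands. TGACGTCA holds no TGANTCA. An AP-1 site was found in 2 of the 20 genes (Csrnp1 and Tnfaip3), a CRE in 4 (Btg2, Dusp1, Maff and Ppp1r15a), a CArG box in 1 (Dusp5) and an NF-κB site in 7 (Fos, Fosb, Fosl2, Ier3, Maff, Nr4a1 and Tnfaip3). Among the 12321 tested genes with a window the shares were 6.70%, 3.21%, 1.66% and 12.4%, and among all 27025 genes with a window 8.97%, 2.03%, 1.81% and 9.55%. A match describes letters and not a site in use. The windows below are those of the called members with a single window, at least 1 motif and the smallest adjusted p, printed 5′ to 3′ on the strand of the gene with the motif in capitals.

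Ppp1r15a, chr7:45526219-45526518, minus strand, CRE starting 12 bases before the start site: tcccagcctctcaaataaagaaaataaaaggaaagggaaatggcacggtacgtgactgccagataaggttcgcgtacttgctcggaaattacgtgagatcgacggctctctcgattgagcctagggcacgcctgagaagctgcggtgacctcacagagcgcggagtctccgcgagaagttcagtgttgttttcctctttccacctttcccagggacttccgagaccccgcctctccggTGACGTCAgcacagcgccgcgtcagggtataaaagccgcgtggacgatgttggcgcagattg
Fosb, chr7:19309996-19310295, minus strand, NF-κB site starting 188 bases before: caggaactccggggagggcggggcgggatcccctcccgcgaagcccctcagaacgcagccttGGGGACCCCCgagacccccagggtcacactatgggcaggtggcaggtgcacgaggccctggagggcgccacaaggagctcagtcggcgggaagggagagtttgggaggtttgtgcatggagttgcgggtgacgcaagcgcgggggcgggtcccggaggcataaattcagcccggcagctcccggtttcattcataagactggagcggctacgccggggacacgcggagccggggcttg
Dusp1, chr17:26508423-26508722, minus strand, CRE starting 143 bases before: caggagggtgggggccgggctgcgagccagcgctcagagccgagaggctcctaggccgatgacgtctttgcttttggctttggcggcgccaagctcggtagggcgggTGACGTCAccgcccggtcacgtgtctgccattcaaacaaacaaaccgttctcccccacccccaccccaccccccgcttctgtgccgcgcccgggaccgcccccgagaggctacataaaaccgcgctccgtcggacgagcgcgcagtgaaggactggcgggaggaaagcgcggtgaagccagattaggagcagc
Dusp5, chr19:53528895-53529194, plus strand, a pair of adjacent CArG boxes starting 82 and 72 bases before: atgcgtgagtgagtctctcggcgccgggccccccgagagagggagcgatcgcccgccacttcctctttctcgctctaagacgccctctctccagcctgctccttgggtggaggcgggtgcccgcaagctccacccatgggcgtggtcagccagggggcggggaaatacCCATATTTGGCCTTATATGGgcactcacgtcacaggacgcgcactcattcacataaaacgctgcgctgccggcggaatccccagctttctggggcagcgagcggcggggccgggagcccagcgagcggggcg

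The CRE of Ppp1r15a and that of Dusp1 are the same 8 letters at different distances from the start. The windows of Junb and Klf4 held none of the 4 motifs, which says nothing about the factors that act there.

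Of the 20 listed genes known to mark Treg of visceral fat, 5 were higher in female VAT Treg, beside 1.42% of all genes, and 0 were lower. The median of the 20 was 0.94, beside 0.14 for all genes. Il1rl1, the gene of ST2, had 117 and 149 CPM in VAT Treg, 40.1 and 39.0 CPM in spleen Treg and 21.5 and 26.9 CPM in VAT CD4 T cells. Both VAT Treg libraries lay above all 4 others, and the log2 fold change over spleen Treg was 1.75 (SE 0.25, adjusted p = 0.00133), a call kept without any one library. Areg, the epidermal growth factor family ligand amphiregulin, had 255 and 80.6 CPM against 23.8 and 15.7 CPM, and 26.6 and 34.1 CPM in VAT CD4 T cells, a log2 fold change of 3.08 (SE 0.51, adjusted p = 0.00436). Klrg1, an inhibitory receptor, had 118 and 129.6 CPM against 37.1 and 32.7 CPM, and 4.12 and 15.2 CPM in VAT CD4 T cells, a log2 fold change of 1.83 (SE 0.41, adjusted p = 0.0300). These 3 genes were thus higher in VAT Treg than in either of the other groups, without overlap.

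The chemokine receptor genes Cxcr6 and Ccr2 were also higher in VAT Treg but not above VAT CD4 T cells. Cxcr6 had 82.9 and 147 CPM in VAT Treg, 51.2 and 28.2 CPM in spleen Treg and 283 and 311 CPM in VAT CD4 T cells, a log2 fold change over spleen Treg of 1.53 (SE 0.31, adjusted p = 0.0161). Ccr2 had 183 and 322 CPM in VAT Treg, 79.8 and 113.5 CPM in spleen Treg and 259 and 193 CPM in VAT CD4 T cells, a log2 fold change of 1.38 (SE 0.31, adjusted p = 0.0300). Without the second VAT library the value of Areg was 3.69 and without the first 2.03. Of the 5 called genes, Areg lost its call without the first spleen library (0.0515), Cxcr6 without the second VAT library (0.237) or the second spleen library (0.1), Ccr2 without the second VAT library (0.342) or the first spleen library (0.28), and Klrg1 without any one of the 4 (0.0683 to 0.183).

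The remaining 15 genes of the visceral fat list did not pass. DESeq2 called 10 of the 20 genes higher and 0 lower, among them Il10 (adjusted p = 0.0370) and Gata3 (0.0154). Of all 17340 genes it called 969 higher and 320 lower. Il10, the anti-inflammatory cytokine, had 82.1 and 56.6 CPM in VAT Treg and 11.8 and 0.425 CPM in spleen Treg, a log2 difference of 3.50 (SE 0.95, adjusted p = 0.0699) with a wide gap between the spleen libraries. Its log2 difference was 7.33 without the first of them and 3.76 without the 3 T cell libraries highest in fat cell markers. Without a filter on low counts Il10 was called (edgeR adjusted p = 0.00475). Gata3 differed by 1.43 (SE 0.39, adjusted p = 0.0728) and Fgl2, a secreted suppressor protein, by 1.03 (SE 0.26, adjusted p = 0.0552). Pparg had 6.46 and 22.8 CPM in VAT and 23.5 and 10.3 CPM in spleen, so its groups overlapped (log2 difference -0.21, SE 0.89). The differences of Batf, Irf4, Prdm1 and Rora, transcription factor genes of effector Treg, were -0.66, 0.38, 0.76 and 0.84. Cd36, a fatty acid transporter, stood at 44.9 and 941 CPM in VAT and 15.1 and 31.3 CPM in spleen, and its level followed the fibroblast marker sum of the second VAT library (2252 CPM). Its log2 difference was 4.41 (SE 1.32, adjusted p = 0.103), and 0.95 without that library. Whether Cd36 came from the Treg was not tested.

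The same contrast in male mice (2 VAT Treg and 2 spleen Treg libraries of Foxp3RFP males) called 608 genes higher (3.51%) and 529 lower (3.05%), and it shares no library with the female one. In males 16 of the 20 visceral fat genes were higher and 1 was lower. An interaction term tested the difference between the sexes and called 92 genes (0.531% of those tested). For Il1rl1 the log2 fold change was 6.22 in males, and the female value was smaller by 4.47 (interaction adjusted p = 6.22e-06). For Areg it was 8.44 in males, with a difference between the sexes of -5.35 (adjusted p = 0.000872). The corresponding differences were -4.15 for Klrg1 (adjusted p = 0.00158), -4.07 for Cxcr6 (0.000232) and -2.54 for Ccr2 (0.00763). Ccr2 lost this call without the first female VAT library (0.0682) or the first male spleen library (0.0926). With the libraries of the 4 compared groups alone Areg (0.0878) and Ccr2 (0.125) lost it. In all, 18 of the 20 genes had a smaller value in females, and 6 of these 18 were called in the interaction.

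Of the 21 early response genes called in females 16 had a smaller fold change than in males, and 5 were called in the interaction. These 5 were Nfkbiz, with a difference of -3.05 (adjusted p = 0.00692), Junb with -1.73 (0.00685), Csrnp1 with -1.60 (0.0135), Dusp1 with -2.58 (0.0354) and Nr4a1 with -3.25 (0.0124). Without 1 library the calls were lost for Dusp1 in all 8 fits (0.0563 to 0.221), for Csrnp1 without the second female VAT, the first male VAT or either male spleen library (0.0712 to 0.101), for Nr4a1 without the same 4 (0.0598 to 0.102), for Nfkbiz without the first male spleen library (0.0817) and for Junb without the second (0.0631). With the compared groups alone Nfkbiz (0.131), Junb (0.0892), Csrnp1 (0.112) and Nr4a1 (0.158) lost it. Of all 247 genes higher in females 157 were also higher in males, which is 63.6% of the female and 25.8% of the male calls. Of the 49 lower genes 35 were also lower in males, 71.4% of the female and 6.62% of the male calls, and 0 genes were called in opposite directions.

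**Figure D2:**
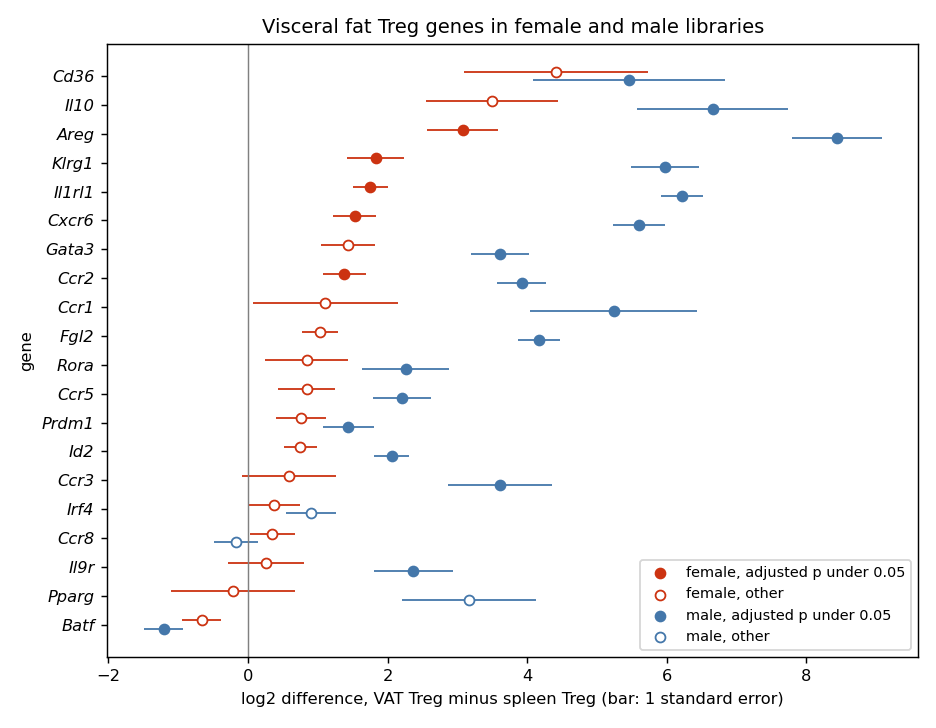
VAT minus spleen log2 differences of the 20 visceral fat Treg genes in females and in males from the edgeR fit, each with a bar of 1 SE to either side, filled where the adjusted p was under 0.05. The female values of Il1rl1 and Areg, 1.75 and 3.08, lie well below the male values of 6.22 and 8.44.

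Of 20 core Treg genes 2 were higher, beside 1.42% of all genes, and 0 were lower, with a median of 0.18. DESeq2 called 3 higher and 2 lower, beside 969 higher and 320 lower of all 17340 genes. Ctla4, an inhibitory receptor, had 870.1 and 347 CPM in VAT Treg, 251 and 214 CPM in spleen Treg and 319 and 249 CPM in VAT CD4 T cells, a log2 fold change over spleen Treg of 1.39 (SE 0.34, adjusted p = 0.0451). Its call was lost without the first VAT library (0.492), the first spleen library (0.199) or the second spleen library (0.158), and with the size factors of DESeq2 (0.0517), and its value without the first VAT library was 0.58. Socs2, a suppressor of cytokine signalling, had 19.8 and 26.0 CPM against 0.335 and 4.13 CPM, a log2 fold change of 3.36 (SE 0.72, adjusted p = 0.0240), which was lost without the second VAT (0.119) or the first spleen library (0.1) and ranged from 2.47 without that library to 6.08 without the second. Il2ra, the high-affinity IL-2 receptor chain, had 247 and 240.2 CPM against 142 and 96.4 CPM, a log2 difference of 1.03 (SE 0.34, adjusted p = 0.153). The differences of Ikzf2 (Helios) and Tnfrsf18 (GITR) were 0.78 (SE 0.28) and -0.33 (SE 0.23), and neither passed. Of 18 costimulatory and coinhibitory receptor genes Ctla4 was higher, 0 were lower, and the median was -0.38. At an unadjusted edgeR p under 0.05, 1 of the 18 was higher and 4 were lower, and DESeq2 called 1 higher and 2 lower. Without overlap 4 were higher, beside 25.9% of all genes, and 11 were lower, beside 15.1%.

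Of 20 genes of resting T cells that recirculate through lymphoid organs, 2 were higher in female VAT Treg and 1 was lower, with a median of 0.62, against 2 higher and 8 lower in males. Of all genes 1.42% were higher and 0.283% lower in females, and 3.51% and 3.05% in males. Tcf7, the transcription factor TCF-1, had 647 and 499 CPM in VAT and 628 and 602 CPM in spleen, overlapping groups with a log2 difference of -0.10 (SE 0.29), against -3.27 in males (interaction 3.17, adjusted p = 0.000996, or 0.0544 with the compared groups alone). Cxcr5, the receptor that directs cells to B cell follicles, was lower, with 114 and 93.0 CPM in VAT and 231 and 223 CPM in spleen. Its log2 fold change was -1.13 (SE 0.24, adjusted p = 0.0240), against -3.95 in males (interaction 2.82, adjusted p = 0.000512). The call of Cxcr5 in females was lost without the first VAT (0.0558), the second VAT (0.244) or the first spleen library (0.121). The 2 higher genes, Ly6c1 with 13.7 and 131 CPM against 1.39 and 3.76 CPM and Igfbp4 with 55.6 and 276.5 CPM against 24.6 and 18.5 CPM, were both highest in the second VAT library. Without it their log2 fold changes were 2.42 and 1.37, from 4.82 and 2.94, and their adjusted p was 0.192 and 0.306. Without the first spleen library it was 0.152 and 0.12, and Igfbp4 also lost its call without the second spleen library (0.0831).

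Calls in the other lists were as follows, beside 1.42% of all genes called higher and 0.283% lower. Of 16 chemokine receptors 3 were higher (Ccr2, Cxcr6 and Ccrl2), 1 was lower (Cxcr5), and the median was 0.63. Of 22 genes of lipid uptake, storage and synthesis 1 was higher, the mitochondrial fatty acid importer Cpt1a, with 116 and 135 CPM against 75.9 and 44.4 CPM, and the median was 0.65. Its call was lost without the first VAT (0.0811), the second VAT (0.272) or the second spleen library (0.174). Of 16 T cell cytokine genes tested Areg was called, and the median of 1.81 became 0.63 with the 7 genes that had no count in spleen set to their bound. No member was called among 20 heat shock genes (median 0.28), 18 integrins and selectin ligands (0.52), 20 genes of hypoxia and glycolysis (0.04) and 20 interferon-stimulated genes (-0.01). At an unadjusted p under 0.05 edgeR had 1 higher and 1 lower heat shock gene, 6 higher and 0 lower integrin genes, 3 higher and 1 lower hypoxia genes, and 1 higher and 0 lower interferon genes. DESeq2 called 0 of the heat shock, 3 of the integrin, 1 of the hypoxia and 1 of the interferon genes, all higher. Of all 17340 genes DESeq2 called 969 higher. In males 11 of the 20 interferon-stimulated genes were lower.

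**Figure D3:**
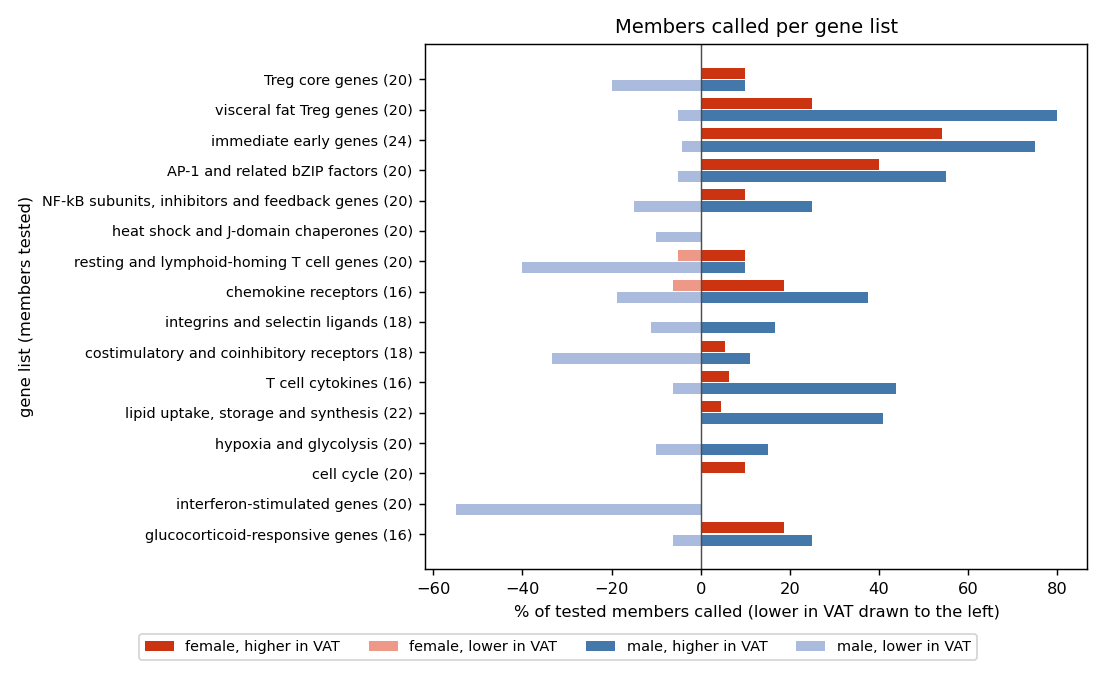
Percent of the tested members of each of the 16 gene lists called higher (to the right of 0) or lower (to the left) in VAT Treg than in spleen Treg, with females and males as separate bars. In females the immediate early list, with 13 of 24 genes higher, and the AP-1 list, with 8 of 20, have the longest bars, and 4 lists have none.

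Some genes of cell division were higher in VAT Treg. Of 20 cell cycle genes 2 were called higher, beside 1.42% of all genes, and 0 lower, and the median was 1.48. At an unadjusted edgeR p under 0.05, 11 of the 20 were higher, beside 2535 of all 17340 genes in either direction. Aurkb, a mitotic kinase, had 33.9 and 14.7 CPM in VAT Treg and no count in either spleen library, at least 279-fold higher against the floor (adjusted p = 9.57e-05). In males its VAT libraries had 8.96 and 10.8 CPM and its spleen libraries 12.9 and 6.44 CPM, so the 2 male groups overlapped. Rrm2, a subunit of ribonucleotide reductase, had 111 and 55.1 CPM against 12.2 and 21.9 CPM, a log2 fold change of 2.29 (SE 0.41, adjusted p = 0.00807), which was lost without the first VAT (0.0742) or the first spleen library (0.12). Outside the list, the replication genes Cdc6 (17.9 and 8.69 CPM) and Gins2 (13.2 and 14.3 CPM) and the Wnt receptor gene Fzd5 (28.6 and 25.8 CPM) also had no count in spleen, and were at least 153-, 158.5- and 314.1-fold higher. From the second VAT library alone the bounds were 173.5-fold for Aurkb and 102.7-fold for Cdc6. The value of Rrm2 without the first VAT library was 1.69. In male spleen Treg Cdc6 had 4.55 and 5.10 CPM and Fzd5 8.15 and 7.26 CPM. Aurkb, Cdc6, Gins2 and Fzd5 kept their calls without any one library. DESeq2 called 8 of the 20 cell cycle genes higher and 0 lower, beside 969 higher and 320 lower of all 17340 genes.

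Many of the higher genes are known from the vessels and connective tissue of fat. The 10 most positive called genes that the naming rule took were Col4a1, Plvap, Igfbp7, Retnla, Hspg2, Fbln2, Timp3, Cdh5, Col6a2 and Adgrf5. None had a count in spleen Treg. Col4a1, a basement membrane collagen, had 28.4 and 347 CPM in VAT Treg and 13.9 and 16.0 CPM in VAT CD4 T cells, at least 2184-fold higher than spleen Treg. Plvap, of the endothelial diaphragm, had 15.1 and 324 CPM (at least 1972-fold), Retnla, a secreted resistin-like protein, 14.5 and 249 CPM (at least 1531-fold), and Cdh5, the endothelial cadherin, 4.78 and 192 CPM (at least 1143-fold). In each the second VAT library was more than 10 times the first, and both lay above the spleen libraries. From the first VAT library alone the bounds were 319.8-fold for Col4a1, 170.0-fold for Plvap, 163.5-fold for Retnla and 53.8-fold for Cdh5. Col4a1, Retnla and Hspg2 kept their calls without any one library. Plvap, Igfbp7, Fbln2 and Col6a2 lost theirs without the first spleen library (adjusted p 0.0675 to 0.105), and Timp3, Cdh5 and Adgrf5 without either spleen library or the second VAT library (0.0801 to 0.193).

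The 247 higher genes were split, after their values were seen, by whether the second VAT library exceeded the first by more than 3 times in CPM, which holds for 8.74% of tested genes with at least 5 CPM in VAT Treg. It held for 114 of them, of which 86 had no count in spleen. As the set was chosen on the VAT libraries, it follows from the choice that 20 of the 114 were called without the second of them and 113 without the first. Without the first spleen library 7 of the 114 were called, and without the second 37. Stromal libraries of female VAT, GP38-positive and GP38-negative averaged together, were made with another kit. In them 98 of these 114 genes averaged a higher CPM than in VAT Treg. The 114 were chosen on the VAT library high in fibroblast markers, so this count is not independent of the choice. The share over all genes was not taken, so the counts against stroma have no base to be set beside. The other 133 genes include 19 of the 21 early response genes, all but Fos and Ier3, and 24 had no count in spleen. Of the 133, 55 were called without the second VAT library, 79 without the first, 31 without the first spleen library and 85 without the second, and 44 averaged a higher CPM in female stroma.

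**Figure D4:**
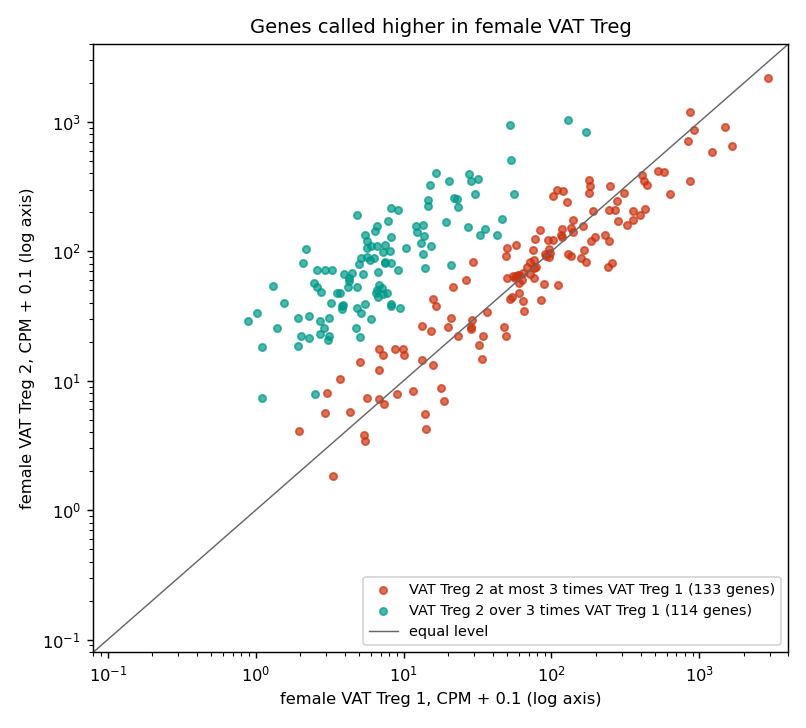
Level of each of the 247 genes called higher in the first female VAT Treg library (x axis) against the second (y axis), as CPM + 0.1 on log axes, 1 point a gene, with the line of equal level. The 133 genes in which the second library is at most 3 times the first, such as Nfkbiz with 323 and 158 CPM, lie along that line, and the other 114, such as Col4a1 with 28.4 and 347 CPM, lie above it.

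Markers of fat cells other than Treg followed the same library. Of the fibroblast markers 6 of 10 were called higher, of the endothelial 5 of 11 and of pericytes and smooth muscle 7 of 10, while 0 of 11 adipocyte, 0 of 10 mesothelial and 0 of 14 macrophage markers were called. Of all genes 1.42% were called higher. The median of the macrophage markers was -0.44, and -2.84 without the second VAT library. DESeq2 called 3, 1 and 2 of the last 3 lists higher, beside 969 of all 17340 genes. In edgeR 3, 4 and 2 were higher at an unadjusted p under 0.05. The summed endothelial level was 114 and 1380 CPM in VAT Treg and 48.5 and 57.9 CPM in spleen Treg, where Pecam1 made up 45.5 and 56.3 CPM. The pericyte sum was 57.9 and 479 CPM in VAT and 0.112 and 0.121 CPM in spleen. The adipocyte sum was 92.6 and 1463 CPM in VAT and 59.9 and 55.2 CPM in spleen. Without the second VAT library 4 fibroblast, 0 endothelial and 1 pericyte markers were called. Without the first spleen library the counts were 0, 0 and 1, and without the second spleen library 5, 1 and 1. The summed T cell level varied less, at 7073 and 5934 CPM in VAT and 7464 and 7548 CPM in spleen. Whether these genes were transcribed in the Treg or came from other cells or free RNA was not tested.

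**Figure D5:**
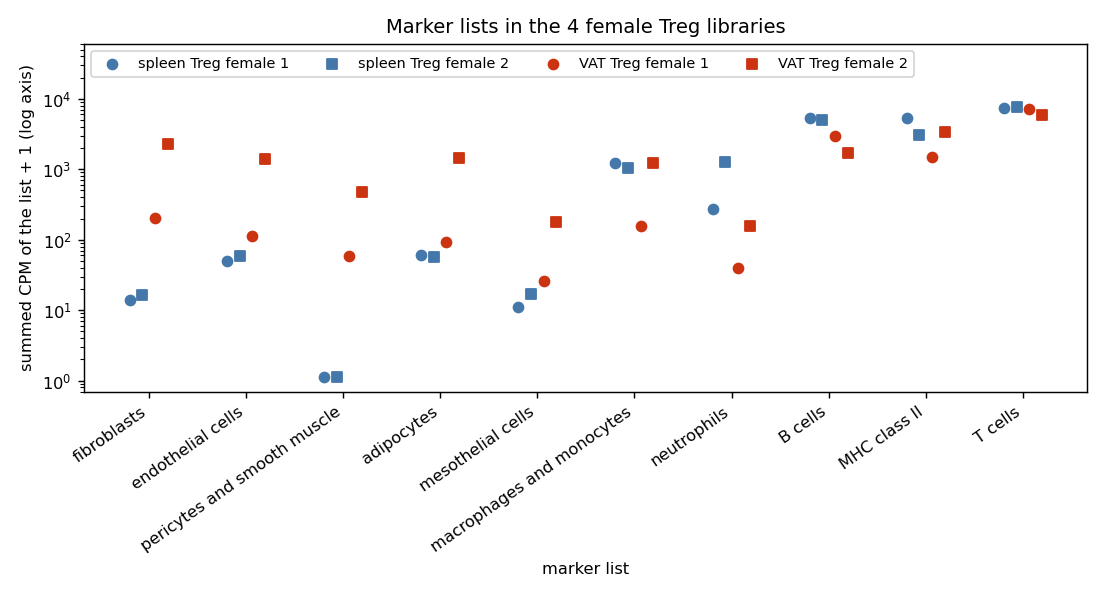
Summed CPM + 1 of 10 marker lists in the 4 female Treg libraries, on a log axis, 1 point a library. The second VAT Treg library has the highest sum of the fibroblast, endothelial, pericyte, adipocyte and mesothelial lists, and the spleen libraries have the highest sums of the B cell list.

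The 49 lower genes, 0.283% of all genes tested, included genes of B cells, neutrophils and macrophages, and of ribosomes. Spib, a transcription factor of B cells and plasmacytoid dendritic cells, had 8.06 and 3.64 CPM in VAT Treg and 121 and 63.4 CPM in spleen Treg, a log2 fold change of -3.98 (SE 0.85, adjusted p = 0.0225). Cd79a, a chain of the B cell receptor, had 22.4 and 9.67 CPM against 208 and 103 CPM, a log2 fold change of -3.28 (SE 0.71, adjusted p = 0.0252), and Cr2, a complement receptor of B cells, had 0.214 and 0 CPM against 26.9 and 32.1 CPM. Without the first VAT library Spib had -4.66 and Cd79a -4.01, and without the first spleen library Cd79a had -2.68. Of the 10 B cell markers 3 were lower and 8 were lower at an unadjusted p under 0.05. The summed B cell level, which includes Cd79a and Cr2, was 1724 to 3004 CPM in VAT against 4978 to 5385 CPM in spleen. In such bulk libraries fewer cells of a type and less RNA per cell cannot be told apart. Ngp, a neutrophil granule gene, had no count in VAT and 58.4 and 294 CPM in spleen (edgeR adjusted p = 0.0375, DESeq2 0.142). Of the 10 neutrophil markers Ngp was called lower and Mmp9, a matrix metalloproteinase, higher, with 32.6 and 134 CPM in VAT and 9.31 and 24.0 CPM in spleen. Mmp9 lost its call without the second VAT (0.608) or the first spleen library (0.329). The neutrophil sum was 38.9 and 154 CPM in VAT against 275 and 1275 CPM in spleen. Of 211 immunoglobulin variable genes tested 4 were lower, and reads of such similar genes may be split between them.

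Slc40a1, the iron exporter ferroportin, and Hmox1, heme oxygenase, are known from red pulp macrophages of the spleen. Slc40a1 had 6.99 and 9.92 CPM in VAT Treg and 143 and 76.3 CPM in spleen Treg, a log2 fold change of -3.70 (SE 0.86, adjusted p = 0.0364). Hmox1 had 9.20 and 23.4 CPM against 180 and 151 CPM, a log2 fold change of -3.34 (SE 0.71, adjusted p = 0.0230). Neither overlapped between tissues, Hmox1 had -4.17 without the second VAT library, and the summed macrophage level was 154 and 1223 CPM in VAT and 1217 and 1050 CPM in spleen. Cd3d, a T cell receptor chain, was lower with 673 and 571 CPM against 1094 and 1116 CPM, a log2 fold change of -0.83 (SE 0.19, adjusted p = 0.0300). Of 81 ribosomal protein genes 8 were lower, beside 0.283% of all genes, 0 were higher, 62 had a negative value, and the median was -0.29. Their summed level was 27460 and 25310 CPM in VAT Treg and 38360 and 33010 CPM in spleen Treg, but 80450 and 68570 CPM in VAT CD4 T cells. Pseudogene copies may share these reads. Apart from the gene model Gm8942, with 99.2 and 86.5 CPM against 274 and 283 CPM (log2 fold change -1.59, SE 0.18), no lower gene kept its call in all 4 fits with 1 library left out. Of the lower genes named here, Spib (0.243), Cd79a (0.262), Cr2 (0.208), Ngp (0.244), Slc40a1 (0.217), Hmox1 (0.0754) and Cd3d (0.272) all lost it without the second VAT library, and also without the first VAT and without the first spleen library (adjusted p 0.0543 to 0.213). Ngp and Cd3d lost it without the second spleen library too (0.0835 and 0.0738).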

How the data were processed

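Sorted Treg were analysed from the authors' deposited count table of whole-number reads for 27179 genes (Entrez identifiers). The submitters' processing notes name Subread 1.6.2, featureCounts, limma, GRCm38 and mm10. Annotation and strand setting were not given in those sources, so reads of overlapping antisense genes cannot be told apart. Some columns of that table, 6 in number, matched no sample and were not used. The authors also deposited log2 FPKM values per library, which served to check columns: each of the 45 files was most like its own count column. Symbols are from the deposited files (16534 identifiers) or from RefSeq, GRCm38.p6 (8784), which also gave coordinates. The remaining 1861 took 1.75% to 2.87% of counts in the 4 libraries.

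The quasi-likelihood test of edgeR 4.0.16 (R 4.3.3) was run with TMM factors, filterByExpr and Benjamini-Hochberg adjustment over all genes tested. The fit took 19 T cell libraries in 10 groups, which share 1 estimate of the spread. The groups were Treg without Cre and VAT CD4 T cells of both sexes, and Treg of male Foxp3Cre and Blimp1Foxp3Cre mice. SE is the fold change over the root of the F statistic. Where a group was at 0, folds used 3 counts over that group as its level and cover counting error only. The procedure was tested on simulated data.

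The members, the 16 gene lists and the 17 marker lists were chosen with earlier results of these data known. Named genes are the called genes with the 10 highest and 10 lowest fold changes that do not overlap and reach 5 CPM in the higher group (without Xist, Y-linked genes and gene models), up to 3 called genes per list, by adjusted p, a set of key genes, and up to 4 genes in each direction of the interaction; others named in the text were chosen after their values were seen, and 1 gene the rule took is not reported here. Alternatives were DESeq2 1.42.0, its size factors in edgeR, no TMM, no filter, a stricter filter, the 4 compared libraries alone, the replicate number as a block, each library left out, and, added after the data were seen, leaving out the 3 T cell libraries highest in summed markers of fat cells. Those 3 were the second libraries of male VAT CD4 T cells, of female VAT Treg and of male VAT Treg. Leaving them out left 1 female VAT Treg library, and the sum that ranked them held the macrophage markers. The pools of a group are taken as separate samples.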

Additional observations from a re-analysis of the deposited data

Results flagged for a closer look

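The tissue difference itself differed between the sexes for 18 of the named genes, by the interaction term of edgeR. A negative value is a smaller VAT over spleen log2 difference in females than in males. Among visceral fat Treg and lipid genes the values were -5.35 for Areg, -4.47 for Il1rl1, -4.34 for the lipid droplet gene Hilpda, -4.15 for Klrg1, -4.07 for Cxcr6 and -2.54 for Ccr2. Among early response genes they were -3.25 for Nr4a1, -3.05 for Nfkbiz, -2.58 for Dusp1, -1.73 for Junb and -1.60 for Csrnp1. The lymphoid-homing genes went the other way, with 3.17 for Tcf7 and 2.82 for Cxcr5, whose levels fell in male but not or less in female VAT Treg. With the compared groups alone Hilpda had an adjusted p of 0.137.

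A further 5 genes had no count in a group, so their fitted values depend on the prior count and are no bound. They were 12.36 for Aurkb, 11.52 for Cpe, 11.51 for Cdc6 and 11.18 for Fzd5, all at 0 in female spleen Treg, and -11.07 for the calcium channel subunit gene Cacnb3, at 0 in male spleen Treg. Cpe, a carboxypeptidase, had 4.64 and 25.6 CPM in female VAT Treg, 5.24 and 12.9 CPM in male VAT Treg and 10.8 and 5.18 CPM in male spleen Treg. Cacnb3 had 1.71 and 7.25 CPM in female VAT Treg, 3.29 and 1.88 CPM in female spleen Treg and 20.7 and 13.2 CPM in male VAT Treg. Without 1 library, Cdc6 lost the call in 4 of 8 fits (0.0510 to 0.128), Cacnb3 in 6 (0.0628 to 0.199) and Cpe without the first male VAT library (0.0582). With the compared groups alone Cpe (0.151), Cdc6 (0.107) and Cacnb3 (0.122) lost it. Groups of 2 libraries are too small to look for a single outlying library.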

How the results depend on the processing

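In females the 296 calls became 1289 with DESeq2, 1 with the 4 compared libraries alone, 575 without a filter on low counts and 196 with the stricter filter, and leaving out 1 library gave 78 to 529. In males the 1137 calls became 2117 with DESeq2, and 405 to 789 with 1 library left out. The interaction had 92 calls, 438 with DESeq2, 40 with the compared groups alone, 166 without the filter and 191 without the 3 T cell libraries highest in markers of fat cells, and 48 to 251 with 1 library left out. The cause of these shifts was not tested, and some of these fits also held fewer samples or genes. The replicate number as a block gave 301 calls in females, 1056 in males and 86 in the interaction. Deviations of same-numbered libraries from their group means had a correlation of -0.00146 in females and 0.0225 in males. With 2 libraries a group, this cannot tell whether the numbers pair them. With the block Slc40a1 (adjusted p 0.0508) and the interactions of Dusp1 (0.0700) and Cacnb3 (0.0772) were not called, Il10 was (0.0269), and no other call of a named gene changed. Directions turned for genes that were not called: with 1 library left out Tcf7 ran from -0.30 to 0.07, Irf4 from -0.40 to 0.88, Pparg from -1.39 to 0.50 and Cacnb3 from -0.59 to 1.49, and without the 3 libraries Tcf7 had 0.08 and Cacnb3 -0.58. With the stricter filter the calls of Timp3, Cdh5, Adgrf5, Socs2, Ctla4, Klrg1, Ccr2 and of 8 lower genes were lost (adjusted p 0.0501 to 0.0939). Of 268 values of the 67 named genes with 1 library left out, 186 kept direction and side of the threshold, 76 lost the call, 1 gained it and 5 turned. Of 536 under the other alternatives the numbers were 446, 80, 8 and 2. With 2 libraries a group, genes that were not called may still differ.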
